A study of Gossypium hirsutum with 15 samples.

Results

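The 103 probes described here gave a higher signal in fibers of the immature fiber (*im*) mutant of Upland cotton than in fibers of its wild-type near-isogenic line TM-1 at each of 5 stages that run from 13 to 25 days post-anthesis (DPA) in steps of 3 days. They were chosen on the arrays themselves: a probe was taken where the mean of log2(*im*/TM-1) over the arrays of a stage was at least 0.4 at all 5 stages. Of 29184 cDNA probes on the array, 12092 had a background-subtracted intensity of 400 units or more in at least 1 dye on at least 2 arrays of every stage, and the 103 probes are 0.852% of these. The same rule turned round gave 31 probes with a higher signal in TM-1, or 0.256%. Because the line difference chose the probes, that difference is described below and not tested.

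Both lines carry the TM-1 background, and *im* is a fiber mutant known for thin, immature walls at harvest. A cotton fiber is a single cell of the seed coat that first elongates and then lays down a thick secondary wall made almost entirely of cellulose. The sampled stages run from late elongation through the transition into the time of wall thickening. 

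RNA of *im* and of TM-1 fibers was hybridised together, with a dye for each line, on 15 dual-dye arrays, 3 replicates for each stage, whose probes were cloned from ovules and fibers. Per the study's methods, plants of both lines grew in the field and fibers were taken from pools of plants. The methods speak of 3 biological pools and, for the arrays, of biological replicates with a dye swap, so the spread between arrays may be technical in part. Fiber is the tissue in the sample labels, but the record of the series speaks of fiber-bearing ovules.

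No table at hand ties a spot to a gene. The probes are therefore given by spot name, no function can be stated for them, and the labelled tissue was not checked against marker genes. The spot name holds the clone plate. The 103 probes came from 53 of 76 plates with at most 5 on a plate, and from 41 of 48 blocks of the array with at most 6 in a block, and 1 pair of them lay on touching spots. Plates 39 to 76 held 74 of the 103 probes (71.8%), against 7382 of the 12092 (61.0%).

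Which line is the higher one rests on the order of the source names. By the dye labels *im* was in Cy5 throughout, yet replicate 2 correlated with replicates 1 and 3 of its stage at -0.76 to -0.35 in log2(Cy5/Cy3), against 0.52 to 0.79 between replicates 1 and 3. The source names place *im* in Cy5 on replicates 1 and 3 and in Cy3 on replicate 2, and this order was used. It turns these correlations positive. The same order with the lines exchanged at any stage does so as well, so the correlations do not settle which line was higher. The methods place TM-1 in Cy5 outside the swap, and by them the 103 probes would be higher in TM-1 at every stage. The material labels exchange the lines at 16 and 22 DPA, and by them a single probe was higher in *im* at every stage and a single probe was higher in TM-1.

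Across the 103 probes the median stage mean of log2(*im*/TM-1) was 0.64 at 13 DPA, 1.00 at 16 DPA, 0.80 at 19 DPA, 0.71 at 22 DPA and 0.63 at 25 DPA, whereas the median of all 12092 probes lay between -0.05 and 0.03. The difference was largest at 16 DPA in 53 probes, at 19 DPA in 16, at 22 DPA in 16, at 25 DPA in 10 and at 13 DPA in 8. It was smallest at 25 DPA in 42 probes and at 13 DPA in 33. The same counts over all 12092 probes were not made. Line differences of all 12092 were also most spread at 16 DPA, with quartiles of -0.39 and 0.33, against -0.23 and 0.21 at 13 DPA. The peak at 16 DPA is thus not taken as particular to the 103 probes. The mean of the 5 stage means ran from 0.47 to 2.65 with a median of 0.81, reached 1 (2-fold) in 12 probes, and reached 2 in 1 probe. Most of the probes thus differed by less than 2-fold. Lower abundance of a transcript per cell and a smaller share of the cells that make it cannot be told apart in pooled fibers.

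Single arrays mostly had the same sign. In 80 of the 103 probes *im* was higher on every array that measured the probe, which was the case in 2.62% of the 12092. In 22 probes *im* was lower on 1 array and in 1 probe on 2 arrays. Of these 24 spots, 20 lay on the 25 DPA array of replicate 3, where *im* was lower for 20 of 101 measured probes and the median over the measured probes was 0.44, against 0.82 and 0.71 on the other 2 arrays of that stage. The spread over the 3 arrays of a stage was also widest at 25 DPA, with a median SD of 0.45 against 0.18 at 13 DPA. Over all 12092 probes it was widest at 25 DPA as well, with 0.27 against 0.18. On replicate 2 of 25 DPA 34 of the 103 probes carried a scanner flag of -100, as did 19639 of all 29184 cDNA probes, faint ones included. The part of these arrays in the smaller difference at 25 DPA was not tested.

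**Figure D1:**
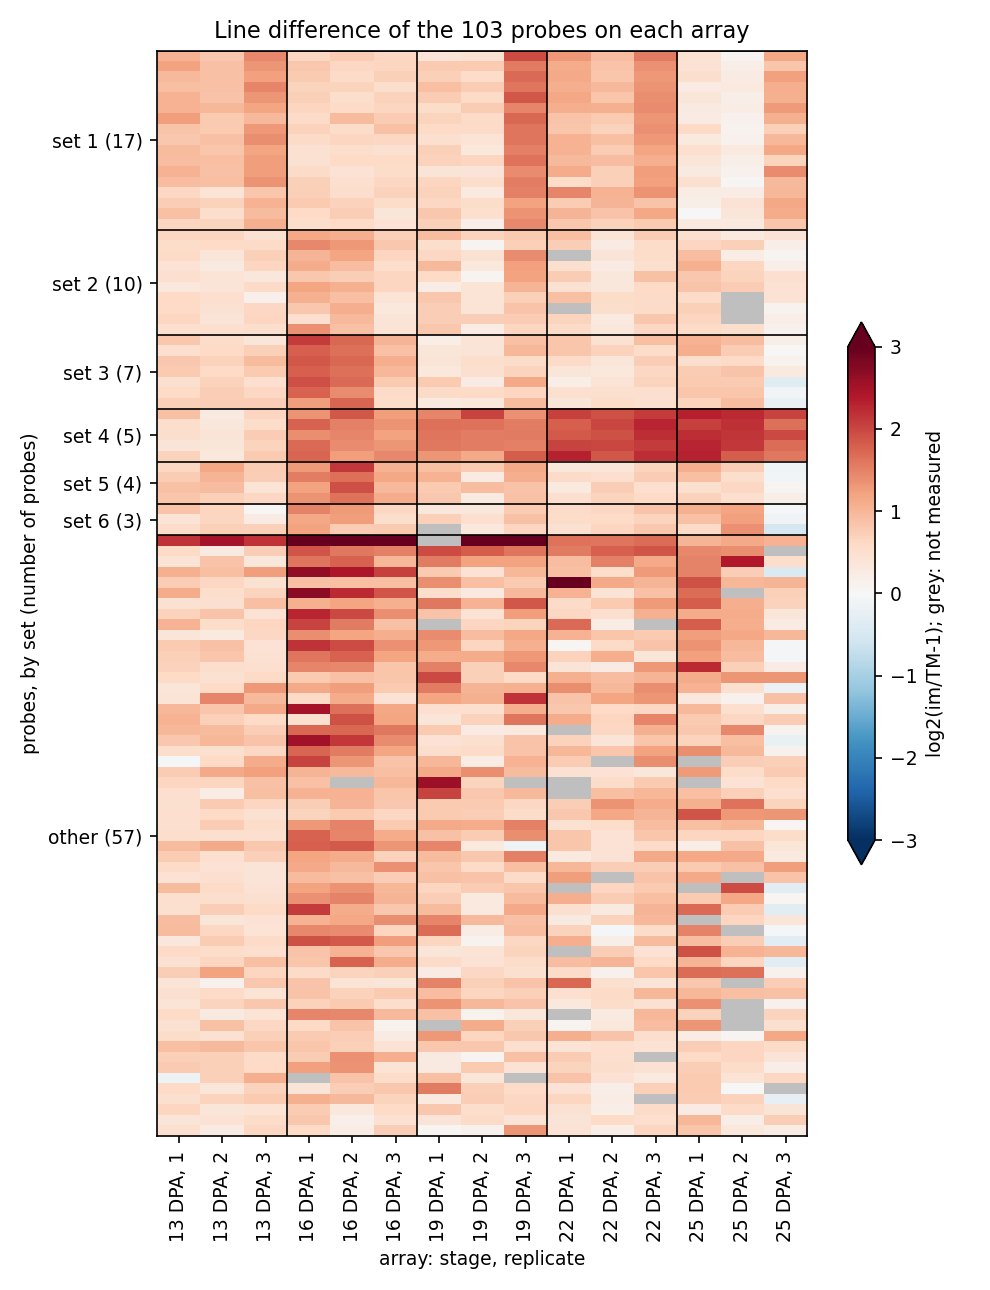
Each line across is 1 of the 103 probes and each column 1 of the 15 arrays, ordered by stage and replicate. Color gives log2(*im*/TM-1), with red for higher in *im* and blue for higher in TM-1, and grey marks spots that were not measured. The blue spots gather on the 25 DPA array of replicate 3, and the fourth set is reddest at 22 and 25 DPA.

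The limma fit on the scanner intensities, with an adjusted p under 0.05 and at least a 2-fold change, called 15 of the 103 probes higher in *im* at 13 DPA, where it called 1.26% of all probes tested. It called 51 at 16 DPA (5.01% of all), 25 at 19 DPA (3.12%), 23 at 22 DPA (1.93%) and 22 at 25 DPA (2.2%). None was called higher in TM-1. At all 5 stages together 1 probe was called, against 0.00827% of the 12092, and 26 of the 103 were called at no stage. These counts follow from the choice of the probes and are given as a description.

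The strongest line difference belonged to 384P58_I_20, the probe called at all 5 stages. Its log2(*im*/TM-1) was 2.16, 2.50 and 2.17 on the 3 arrays of 13 DPA and 3.78, 3.72 and 4.55 on those of 16 DPA. At 19 DPA it was 4.56 and 3.90 on replicates 2 and 3, with no value on replicate 1. It was 1.63, 1.62 and 1.68 at 22 DPA and 1.02, 1.13 and 1.04 at 25 DPA. All 14 values lay above 1, and the 5 values of 16 and 19 DPA lay above all others. In *im* the probe read between 2510 and 7044.5 units at 13 DPA, between 10333 and 10844.5 units at 16 DPA and between 4621 and 9313.5 units at 19 DPA, then between 839.5 and 1497.5 units at 22 DPA and between 536 and 1256 units at 25 DPA. In TM-1 it read between 513.5 and 1323 units at 13 DPA and between 408 and 828.5 units at 16 DPA, and it was under 400 units on 6 arrays, all of them at 19, 22 and 25 DPA. On replicate 1 of 19 DPA the TM-1 reading was below the local background. At 25 DPA the spots of replicates 1 and 2 carried a scanner flag of -100.

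Next came 384P69_C_14, with stage means of 0.60 ± 0.30, 1.49 ± 0.33, 1.62 ± 0.35, 2.02 ± 0.10 and 2.21 ± 0.16 from 13 to 25 DPA (SD, n = 3 arrays each). Its values were 0.88, 0.28 and 0.65 at 13 DPA and 2.34, 2.24 and 2.03 at 25 DPA, and the values of these 2 stages did not overlap. At 25 DPA the probe read 3022, 1452 and 3850 units in *im*, against 565, 336 and 824.5 units in TM-1.

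**Figure D2:**
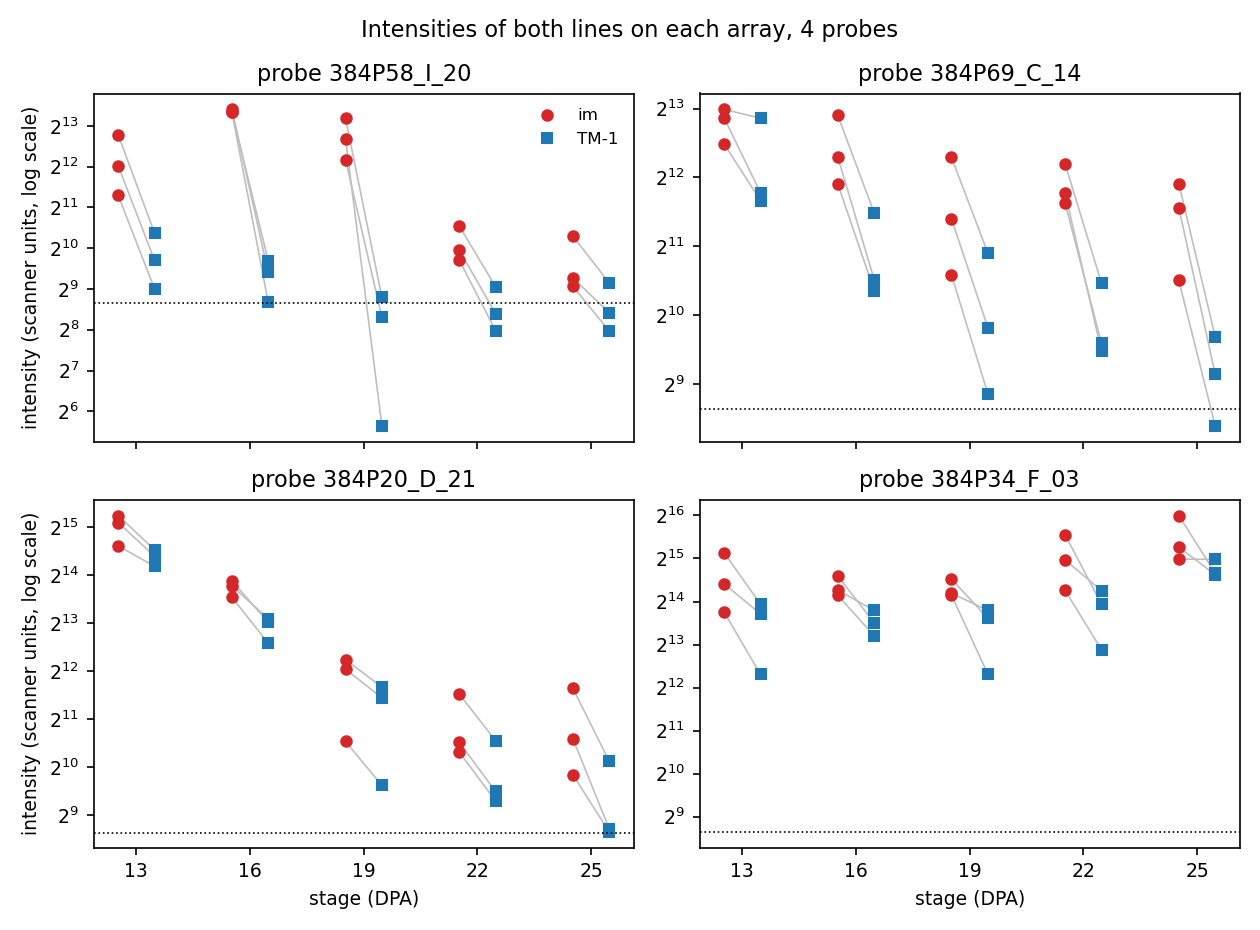
Background-subtracted intensity in scanner units (log scale) is plotted against stage for 4 probes, with *im* as red circles to the left and TM-1 as blue squares to the right, and a grey line joins both readings of an array. Values under 50 units are drawn at 50, and the dotted line marks 400 units. In 384P58_I_20 the *im* readings of 16 DPA lie above all others, in 384P69_C_14 the lines part with age, in 384P20_D_21 both lines fall, and in 384P34_F_03 the TM-1 readings of 25 DPA all lie above those of 13 DPA.

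How far the difference moved between stages varied from probe to probe. The range of the 5 stage means had a median of 0.70, was under 0.3 in 5 probes and was at least 1 in 25. The steadiest was 384P20_P_09, with stage means of 0.45 ± 0.18, 0.51 ± 0.27, 0.51 ± 0.71, 0.42 ± 0.21 and 0.45 ± 0.33 from 13 to 25 DPA (SD, n = 3). On the arrays of 19 DPA, however, it gave 0.06, 0.13 and 1.33, so that the even means cover arrays that differ. The second was 384P58_J_13, with stage means between 0.53 and 0.71 from 13 of 15 arrays, and on replicate 1 of 13 DPA it read 630 units in *im* and 685 units in TM-1. Beside 384P58_I_20, the widest range was that of 384P43_I_03, with 1.07, 0.89 and 1.24 at 13 DPA and 2.67, 2.43 and 2.05 at 16 DPA. At 25 DPA this probe gave 1.50, 0.73 and -0.43, and the last value is again from replicate 3.

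At the edge of the choice, 384P56_A_17 and 384P76_B_24 were just inside with lowest stage means of 0.401 and 0.402, and 384P34_J_23 and 384P53_L_06 were just outside with 0.3997 and 0.397. In 37 of the 103 probes the lowest stage mean was under 0.45, and 32 other probes had one between 0.35 and 0.4. Many probes thus stand close to the limit on either side.

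Faint TM-1 signal bounds part of the values. TM-1 was under 400 units on at least 1 array in 48 of the 103 probes (46.6%), against 5481 of the 12092 (45.3%), and *im* in 26. In 17 of 515 pairs of probe and stage, from 13 probes, TM-1 was under 400 units on every array that measured the probe, and 10 of these pairs lay at 22 DPA and 6 at 25 DPA. They are 3.30% of the pairs, against 0.337% over all 12092 probes, and this share follows in part from a choice that asks for less signal in TM-1. The 2 probes with TM-1 under 400 units on most arrays were 384P65_E_22, on 10 arrays, and 384P44_C_15, on 9. At 22 DPA 384P44_C_15 read 578.5, 649.5 and 709 units in *im*, against 212, 329 and 295.5 units in TM-1.

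Reading a replicate that had no part in the choice showed how often the sign repeated. It cannot show which line was higher, since the methods' dye assignment turns all replicates together. The replicate read may share RNA with the others. The rule was applied to replicates 2 and 3 and the chosen probes were read on replicate 1, and likewise for the others. The lists so chosen are not the list described above. Of the 61, 93 and 54 probes read on replicates 1, 2 and 3, 49, 60 and 35 belonged to it. The percentages thus describe the rule and not the described probes alone. Of 61 probes chosen without replicate 1 and measured on all its 5 arrays, *im* was higher at all 5 stages in 60 (98.4%, 95% Wilson interval 91.3 to 99.7), against 13.3% of the 8396 probes measured at every stage on all 3 replicates. On replicate 2, which has the opposite dyes, it was 70 of 93 (75.3%, 65.6 to 82.9), against 10.8%. On replicate 3 it was 37 of 54 (68.5%, 55.3 to 79.3), against 9.97%. The intervals cover counting error only, and the probes are not independent. The intervals are thus given as a description. On replicate 3 the median difference was 0.59 to 0.98 from 13 to 22 DPA and 0.17 at 25 DPA, where 40 of 54 probes were higher in *im*. On replicate 2 the probes with *im* not higher lay mostly at 13 and 16 DPA, where 78 and 77 of 93 were higher.

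**Figure D3:**
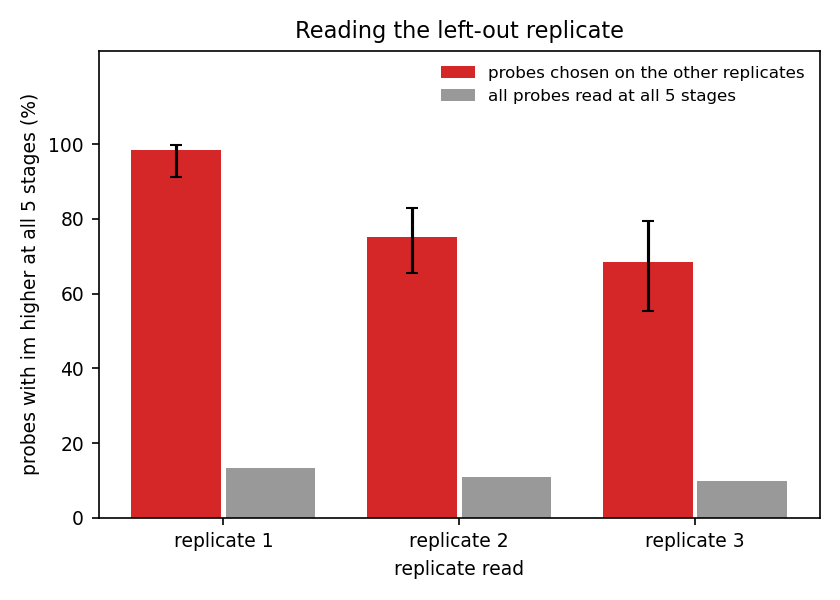
Bars give the percentage of probes with a higher signal in *im* at all 5 stages on the replicate named below them, in red for probes chosen on the other 2 replicates with 95% Wilson intervals and in grey for all 8396 probes measured at every stage on the 3 replicates. The red bars are 98.4%, 75.3% and 68.5%, and the grey bars 13.3%, 10.8% and 9.97%. The intervals treat the probes as independent, which they are not.

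Probes with like values over the 15 arrays were grouped by average linkage of the root mean square difference of log2(*im*/TM-1), cut at 0.3. The grouping was made after the values were seen and carries no test. It gave 6 sets of 3 or more probes with 46 of the 103 probes, 11 pairs and 35 probes alone. At limits of 0.25 and 0.35 the sets of 3 or more held 35 and 70 probes, and the largest had 13 and 17. Whether probes of a set are copies of the same or a related transcript was not tested, since no sequence of the spots was used here.

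The first set held 17 probes from 14 plates and 16 blocks. Its median stage means were 1.03, 0.62, 0.92, 1.02 and 0.50 from 13 to 25 DPA. The set median was thus lowest at 25 DPA and, unlike that of the 103, low at 16 DPA. In 384P62_C_10 and 384P03_L_20 the lowest stage mean was that of 16 DPA, with 0.48 and 0.52. All 17 were higher in *im* on every array by the authors' log2 ratios. From the scanner intensities after loess and Aquantile, some were under 0.4 at 25 DPA. The difference was 0.19 in 384P72_A_15, 0.21 in 384P29_K_07 and 0.23 in 384P71_B_19. Others stayed above it, as 384P17_J_01 with 0.54. On replicate 2 of 25 DPA 384P72_A_15 read 55228.5 units in *im* and 60249.5 units in TM-1 before normalization. The mean over the set was 1.57 on replicate 3 of 19 DPA, against 0.66 and 0.52 on the other arrays of that stage. It was 1.04 on replicate 3 of 25 DPA, against 0.34 and 0.21. The SD over the 17 probes was at most 0.21 on any array. Such likeness of the probes on each array follows from the grouping, which used these values. Of the 12092 probes, 20 lay within 0.3 of the mean profile of the set, namely these 17 and 3 others whose lowest stage mean, at 25 DPA, was between 0.36 and 0.39. In 4 of the 17 a spot was saturated on at least 1 array.

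The fourth set held 5 probes from 5 plates and 5 blocks, with 384P69_C_14 among them, and its difference widened with age. The median stage mean was 0.56 at 13 DPA, 1.48 at 16 DPA, 1.56 at 19 DPA, 2.03 at 22 DPA and 2.02 at 25 DPA. On single arrays the mean over the set lay between 0.34 and 0.69 at 13 DPA and between 1.79 and 2.24 at 25 DPA, and each of the 5 probes was higher in *im* on every array. The lowest of them at 25 DPA was 1.58, above the highest at 13 DPA, 0.88. Only 2 other probes of the 12092 came within 0.3 of the mean profile of this set, and both had a lowest stage mean of 0.22.

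The second set (10 probes) and the third set (7 probes) had their largest difference at 16 DPA, with median stage means of 0.87 and 1.47 there and 0.46 to 0.66 at the other stages. In the third set the 16 DPA arrays gave means of 1.78, 1.66 and 0.84, with replicate 3 the lowest, and the 25 DPA arrays gave 0.81, 0.81 and -0.01. These profiles were common: 178 and 62 of the 12092 probes lay within 0.3 of them, and 159 and 42 of those were not among the 103.

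**Figure D4:**
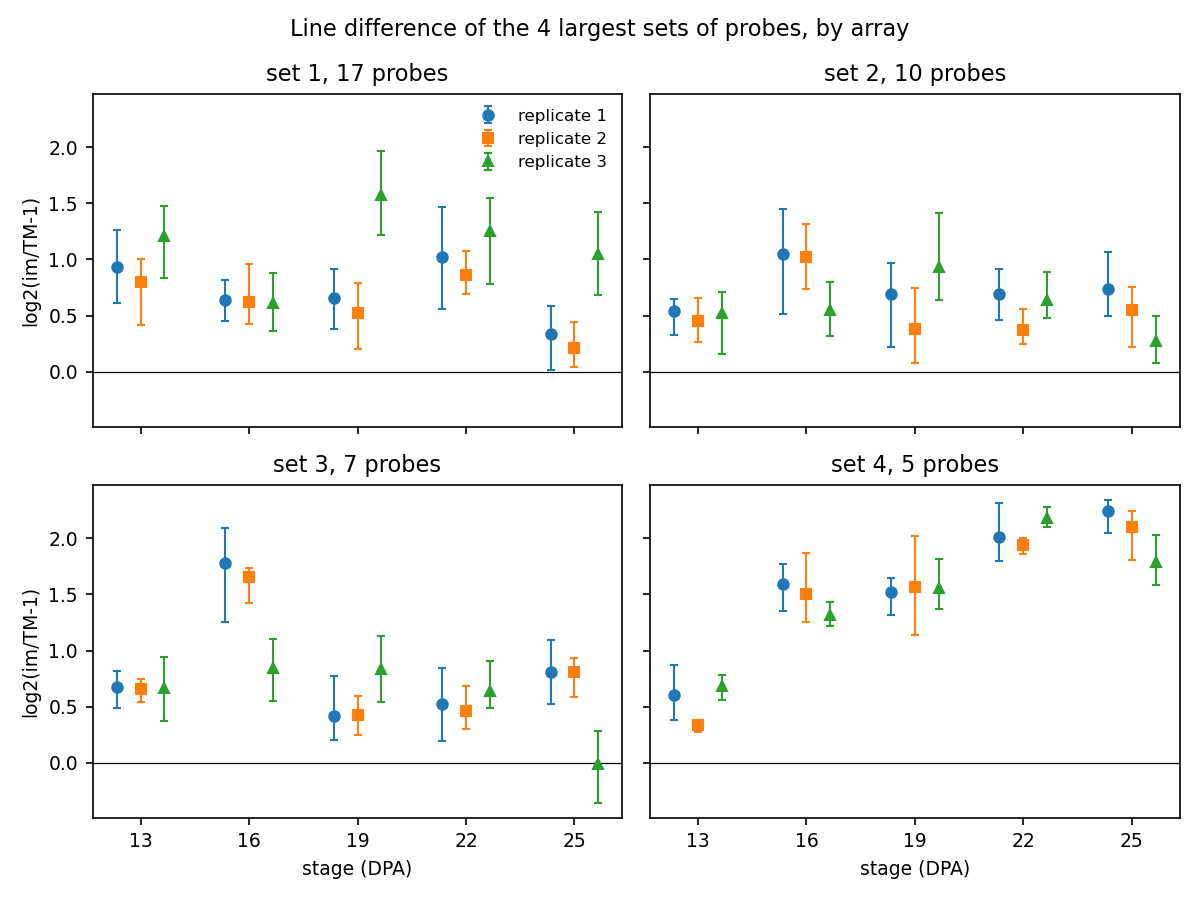
Points give the mean of log2(*im*/TM-1) over the probes of a set on each array, by stage and replicate, for the 4 largest sets (17, 10, 7 and 5 probes), and bars run from the lowest to the highest probe. The first set is high on replicate 3 of 19 and 25 DPA, the third has its highest values at 16 DPA on replicates 1 and 2, and the means of the fourth lie between 0.34 and 0.69 at 13 DPA and between 1.79 and 2.24 at 25 DPA.

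The level of a probe is the mean log2 intensity of *im* and TM-1 on an array after loess and Aquantile. It entered the rule through the limit of 400 units in 1 dye at every stage, which all 12092 probes met. A probe chosen for less signal in TM-1 can meet this limit through *im* alone. The choice is thus not fully separate from a low level at late stages, and the counts below are read with this limit. A lower level at 25 than at 13 DPA was found in 79 of the 103 probes (76.7%), against 60.6% of the 12092. Between 25 and 13 DPA the level fell at least 2-fold with an adjusted p under 0.05 (limma) in 50 probes (48.5%), against 15.1% of the 12092, and rose in 8 (7.77%), against 7.96%. With either dye under 400 units left out, it fell in 29 of 72 probes (40.3%), against 16.6% of all. By the F test over the 5 stages the level changed in 60 probes (58.3%), against 34.7%. The median change from 13 to 25 DPA was -1.08, against -0.23 for all probes. The 103 probes started higher, with a median level of 11.90 at 13 DPA against 10.83 for all 12092. At 25 DPA the medians were 10.35 and 10.57. Probes were not matched for level, and a probe near 400 units has less room to fall and still be measured. The part of this in the counts was not tested. Level was highest at 13 DPA in 66 of the 103 probes (64.1%), against 36.6% of the 12092, and it was lowest at 22 DPA in 35 probes (34.0%, against 17.3%) and at 25 DPA in 33 (32.0%, against 23.4%). The median change since 13 DPA was -0.23 at 16 DPA, -0.71 at 19 DPA, -1.20 at 22 DPA and -1.08 at 25 DPA. The counts depended on the replicates. Without replicate 1 the level fell in 26 of 85 probes tested (30.6%, against 8.19% of all), without replicate 2 in 21 of 85 (24.7%, against 6.62%) and without replicate 3 in 47 of 82 (57.3%, against 18.6%). The F test called 22 probes (25.9%, against 11.8%) without replicate 1, 19 (22.4%, against 14.9%) without replicate 2 and 50 (61.0%, against 34.9%) without replicate 3.

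The 31 probes higher in TM-1 at every stage mostly had a higher level at 25 than at 13 DPA. Their median change between 25 and 13 DPA was 0.39, 5 rose and 1 fell by the same test, and 3 of 31 had a lower level at 25 than at 13 DPA, against 79 of the 103 probes higher in *im*. Without Aquantile the median of all probes moved from -0.23 to -0.70. Relative to that median the change was -0.86 with Aquantile and -0.82 without it for the 103 probes, and 0.62 and 0.70 for the 31. In absolute terms 15 of the 31 were then lower at 25 DPA, with a median of 0.01. This contrast was noticed in the data and was not tested over the lists.

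**Figure D5:**
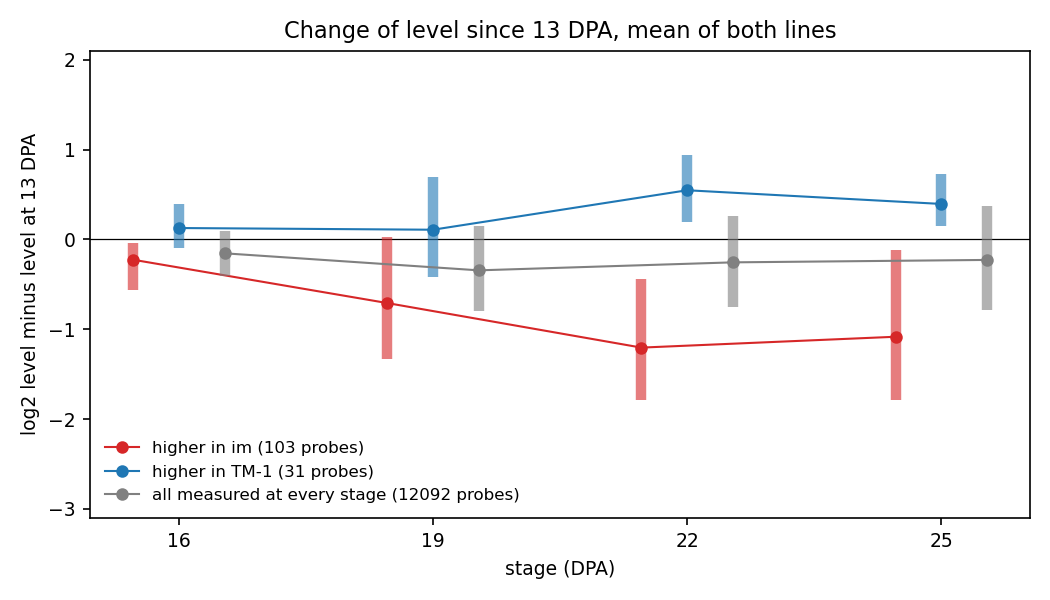
The change of level since 13 DPA (log2, mean of both lines) is plotted against stage for the 103 probes higher in *im*, the 31 higher in TM-1 and all 12092 probes, with points for medians and bars for the quartiles. The red medians drop to -1.20 at 22 DPA and -1.08 at 25 DPA, the blue medians are 0.55 and 0.39 there, and the grey ones -0.26 and -0.23.

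Each line was also read by itself, as a description. The level changed by a median of -1.01 in *im* and -1.04 in TM-1 between 25 and 13 DPA, and it was lower at 25 DPA in 81 of the 103 probes in *im* and in 77 in TM-1. Counts in a single line were not made over all 12092 probes. Their mean level of both lines was lower at 25 DPA in 60.6%.

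The steepest falls were those of 384P53_I_10 and 384P20_D_21. In 384P53_I_10 the level dropped by 5.14 ± 0.34 (SE, limma, adjusted p = 7.6e-09), and the 3 arrays of 13 DPA read 18030, 26419 and 11645.5 units in *im*, against 11557, 16659 and 7889 units in TM-1. At 25 DPA they read 450, 506 and 418 units in *im*, against 201, 87 and 306 units in TM-1, where the TM-1 level is only bounded. The spots of replicates 1 and 2 of 25 DPA carried a scanner flag of -100. The size of this drop thus rests in part on faint and flagged readings. In 384P20_D_21 the level dropped by 4.20 ± 0.40 (adjusted p = 5.4e-07), and all 15 arrays gave a higher signal in *im*. Its line difference was 0.50, 0.60 and 0.46 at 13 DPA and 1.88, 1.30 and 1.32 at 25 DPA, so that the lines lay further apart where the probe was faint.

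The largest rises were those of 384P75_A_05, by 1.98 ± 0.39 (SE, limma, adjusted p = 0.0013), and 384P34_F_03, by 1.95 ± 0.38 (adjusted p = 0.00097). The arrays of 25 DPA read 5388, 6006 and 7012 units in *im*, against 3809.5, 6403 and 3183 units in TM-1, for 384P75_A_05. On replicate 2 the 2 readings were thus close, and its log2(*im*/TM-1) was 0.12 there, against 0.32 and 0.87 on replicates 1 and 3. For 384P34_F_03, a probe of the first set, they read 39390, 32451.5 and 65478 units in *im*, against 25212.5, 32345.5 and 25883 units in TM-1, and the reading of 65478 was saturated.

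The sets differed in their levels as well. In the first set the level was higher at 25 than at 13 DPA in all 17 probes, by 0.05 to 1.95, and 7 of the 8 probes with a called rise belonged to it. None of the 17 fell. In the fourth set the level fell in all 5 probes, by 1.68 to 2.68, and the median change was -1.51 in *im* and -2.96 in TM-1. Among the 57 probes outside the 6 sets, 36 fell and 1 rose. The 2 probes with the highest level, 384P72_A_15 and 384P71_B_19, are both of the first set and were saturated on 4 and 5 arrays, which limits their line difference. In 384P72_A_15 the level rose by 1.04 ± 0.29 (SE, limma, adjusted p = 0.015), while its log2(*im*/TM-1) had means of 0.98 at 13 DPA and 0.47 at 25 DPA.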

How the data were processed

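Spots were quantified by the authors with LuxScan, and the deposited scanner file of an array gives intensity medians for Cy5 and Cy3, local background and flags of 30000 spots, of which 816 were controls and not used. A deposited table of values has log2 of Cy5 over Cy3, made by the authors, which correlated at 0.959 to 0.996 with the intensities. The methods name a filter on faint spots, LOWESS and Aquantile, without saying which of these the table went through. R 2.12.2 and limma 3.4.5 stand in the processing notes of the submitters.

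Line differences came from the value table, turned for the swap, with spots under 400 units in both dyes left out. Levels and limma calls came from the intensities (floor of 50 units, loess, Aquantile, limma 3.58.1, R 4.3.3, Benjamini-Hochberg), with a coefficient per stage over all 15 arrays. Between 13761 and 19272 probes were measured per array. The scripts were tested on simulated data. The number of arrays limits the precision.

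Members, lists and comparisons were chosen with earlier results of these data known. The rule for named probes took 2 each for highest mean difference, smallest and largest range, nearness to the limit on either side, highest level, largest rise and fall of level, and TM-1 most often under 400 units.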

Additional observations from a re-analysis of the deposited data

How the results depend on the processing

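The choice depended on its limit and on the labels. At limits of 0.3 and 0.5 the rule gave 197 and 39 probes. With the methods' dye assignment it gave 31, none of them among the 103, and with the material labels 1. It gave 89 probes from the scanner intensities (87 shared), 70 with either dye under 400 units left out (70 shared), 149 without a filter (99 shared) and 79 with both dye orientations weighing the same (71 shared). Leaving out a replicate gave 57 to 99 probes (37 shared without replicate 3). Chosen after seeing the data, leaving out the 25 DPA array of replicate 3 gave 92 (69 shared), leaving out spots flagged -100 gave 86 (85 shared), and keeping replicate 3, where the Cy3 background was 285 units against 974 and 798, as the only array of 19 DPA gave 109 (97 shared).

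The probes called by stage (15, 51, 25, 23 and 22 from 13 to 25 DPA) and the 1 called at all 5 stages were called higher in TM-1 by the methods' dye assignment, as were the 51 and 23 at 16 and 22 DPA by the material labels, which left 0 at all 5. At 25 DPA 8 were called with either dye under 400 units left out and 12 with normexp, against 188 and 207 over all probes. With either of these, without a filter, and with a dye term, 0 were called at all 5 stages. Leaving out a replicate gave 6 to 11 calls at 13 DPA, 45 to 60 at 16, 18 to 42 at 19, 16 to 27 at 22, 14 to 30 at 25 DPA and 0 to 1 at all 5.

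Level changed in 37 of 72 probes with either dye under 400 units left out (51.4%), by the F test (34.1% of all) and likewise between 13 and 25 DPA (23.8% of all). Leaving out a replicate gave 19 to 50 and 25 to 55 of 82 to 85 probes. The lowest of these, without replicate 2, had 22.4% against 14.9% of all probes by the F test, and a fall between 13 and 25 DPA in 24.7% against 6.62%. Without Aquantile 66 fell (64.1%, against 30.2% of all probes) and 2 rose (1.94%, against 3.39%). With median scaling 54 fell (52.4%, against 18.5% of all) and 5 rose. Called rises numbered 4 without replicate 1 and 4 without replicate 2. Rises over all probes were not counted with median scaling or with a replicate left out. Without a filter 34.0% of the probes fell, against 7.53% of all. The share with *im* higher on replicate 1 was 86.2% without a filter, and on replicate 2 it was 84.4% from the scanner intensities. The causes were not tested.

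Deviations of arrays with the same replicate number correlated at -0.20 to 0.19 for level and -0.12 to 0.53 for the line difference. Their medians were 0.04 and 0.20, against -0.03 and -0.11 between arrays of other numbers. In the line difference arrays of the same number were thus more alike, but the numbers were not taken to pair the arrays. For level and line difference 7 and 11 of 15 arrays correlated best with their own number. With the replicate number as a block 15, 51, 25, 24 and 22 probes were called at the 5 stages, 1 at all 5, and 61 and 59 for level. The block moved no count by more than 1.5 times.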
